A study of Homo sapiens with 6 samples.

Results

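Transcripts of 42 genes of homologous recombination and of the Fanconi anemia pathway were followed in Calu3 cells, a human lung adenocarcinoma line, after siRNA against the bromodomain gene BRD8. The genes were taken by symbol, and all 42 were found among the 26364 genes of the deposited expression table. The study compared 3 RNA-seq libraries from Calu3 cells treated with siRNA against BRD8, labelled siBRD8, with 3 libraries from Calu3 cells treated with a negative control siRNA, labelled siNC. Each siRNA was used at 20 nmol per the labels, and both groups received the transfection reagent RNAiMax. Only 1 catalogue reagent against BRD8 was used, in 1 cell line, and no source used here gives the time of harvest. Whether the libraries of a group stem from separate cultures is not labelled, and p-values therefore describe only the variation among libraries, possibly technical.

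BRD8 belongs to the TIP60 complex, also called NuA4, which acetylates histones. Homologous recombination repairs broken DNA by copying the sister chromatid: the ends are resected, a protein filament is loaded on them with the help of BRCA1, BARD1, PALB2, BRCA2 and proteins such as RAD51B and XRCC2, and the joined molecules are then dissolved by the BLM complex or cut by nucleases. The Fanconi pathway handles crosslinks between the DNA strands: FANCM recruits a core complex with the ubiquitin ligase FANCL, the core ubiquitinates the FANCD2 and FANCI pair, and repair then runs into recombination. ATM and ATR are the kinases that sense the damage, with CHEK2 and CHEK1 downstream of them. Many of these genes are transcribed mostly in S and G2 phase in cycling cells, and the pathway is known from inherited disease: loss of a BRCA1 or BRCA2 copy predisposes to epithelial cancers of breast and ovary, and loss of a Fanconi gene to marrow failure.

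The target gene fell. BRD8 had 1312, 1084 and 1156 normalized counts in the BRD8 siRNA libraries, against 2751, 2928 and 3067 in the control libraries, so that the groups lay far apart. Its level was 59.4% lower, with a log2 fold change of -1.30 (SE 0.0904, limma adjusted p = 0.000113). Exons of BRD8 overlap KIF20A on the opposite strand, KIF20A also fell (log2 fold change -0.67, limma adjusted p = 0.00198), and the library kit did not mark strand. The libraries held 33640814 to 37896467 reads in genes. The first principal component took 53.1% of the variance and separated the groups, while the second took 20.6% and set control library 2 apart from the other 5. Of 9 epithelial markers fixed for Calu3, all were expressed and 5 rose (CDH1, KRT8, MUC1, CFTR and ELF3), where 10.1% of all genes tested rose. The 9 markers had summed normalized counts of 677319 to 736525 with BRD8 siRNA, against 514738 to 618550 in controls. Markers of fibroblasts summed to 212 to 228 with BRD8 siRNA, against 213 to 226 in controls, with COL1A2 at 0, and LUM rose among the 6. Leukocyte markers summed to 1798 to 2116 with BRD8 siRNA, against 1339 to 1732 in controls, nearly all from CD68, which rose. Endothelial markers summed to 11.4 to 13.5 with BRD8 siRNA, against 4.32 to 11.2 in controls. The part of these markers in the results was not tested.

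Among the 42 genes 10 fell and none rose at a limma adjusted p under 0.05, while 32 did not pass. Those that fell were RAD51AP1, XRCC2, BRCA1, BARD1, FANCI, FANCD2, CHEK1, EXO1, BLM and POLQ, by 25.5% (CHEK1) to 41.2% (POLQ). All 42 passed the filter on low values, a mean normalized count of 10 or more. The share that fell was 23.8%, and of all 15354 genes tested 8.93% fell and 10.1% rose. The median log2 fold change of BRD8 siRNA over control was -0.30 over the 42 genes, against -0.01 over all genes tested, and 32 of the 42 lay below 0, with FANCC and RMI2, just above 0, changing sign under DESeq2. Every BRD8 siRNA library was below every control library for 21 of the genes, and above for FANCL, RBBP8 and MUS81, where 17.9% and 18.9% of all genes tested had such a gap in the lower and higher direction. EdgeR's quasi-likelihood test on recovered reads called 12 as lower, where it called 8.66% of all genes, and DESeq2 called 16, where it called 10.5%, each with the 10 among them. No member was called higher by limma, edgeR or DESeq2, and an unadjusted p under 0.05 was found for 22 of the 42 in either direction, where 33.1% of all genes tested had one. In bulk libraries such as these, fewer cells of a type, for example fewer cells in S phase, and less RNA per cell cannot be told apart.

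**Figure D1:**
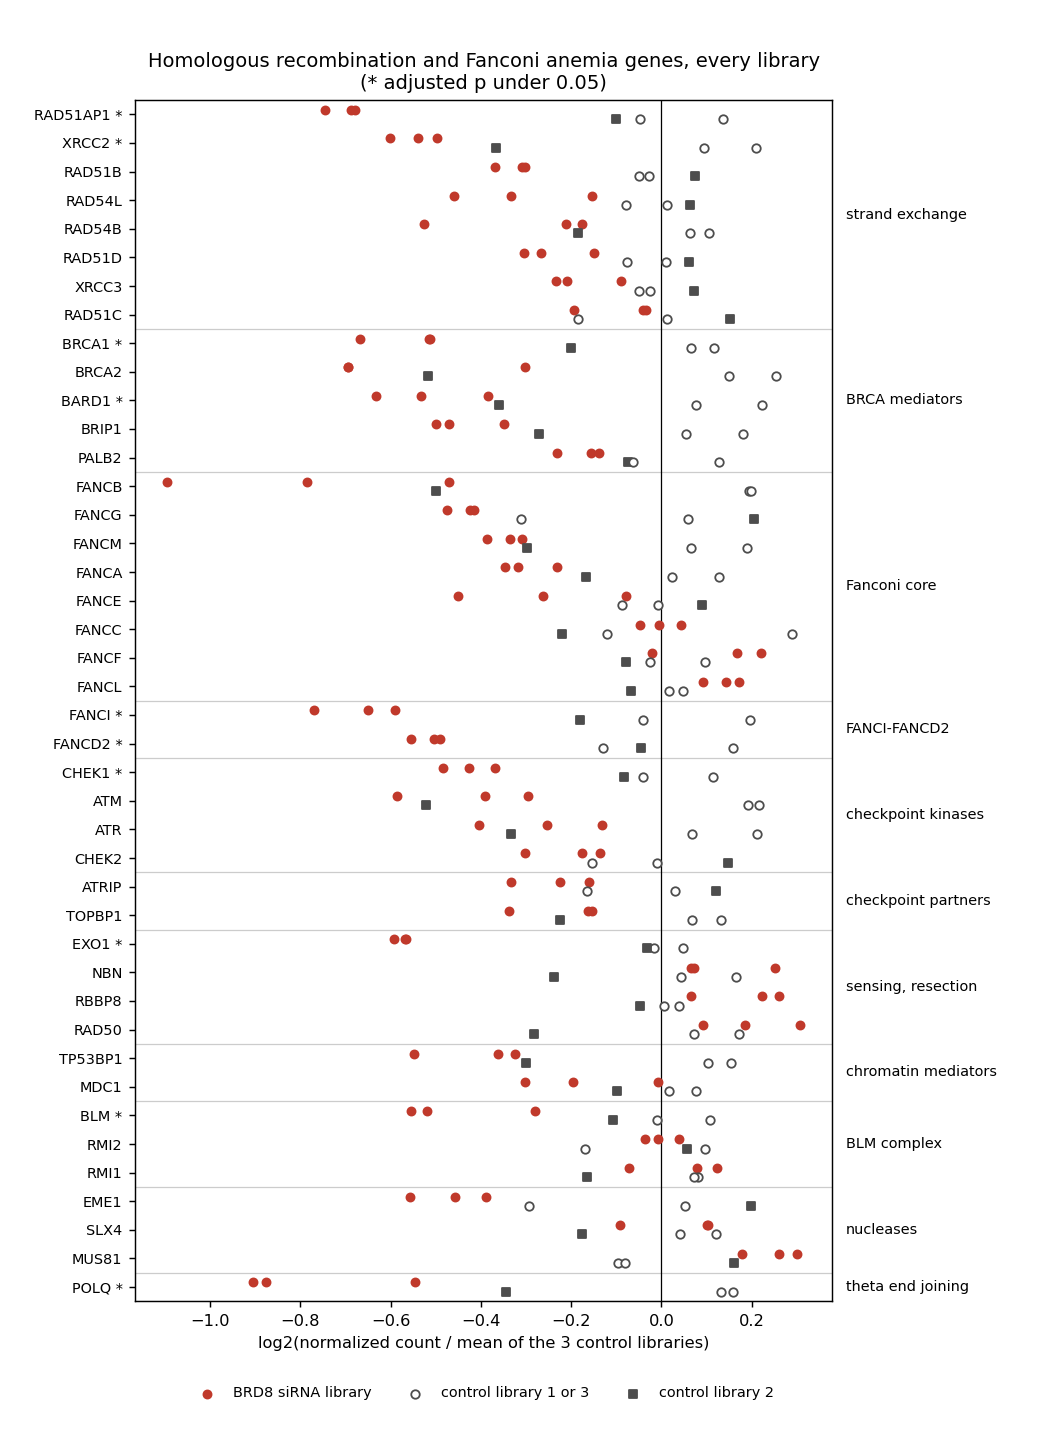
Log2 ratio of each library's normalized count to the mean of the 3 control libraries for the 42 genes, grouped by role; filled circles are BRD8 siRNA libraries, open circles control libraries 1 and 3, squares control library 2, and an asterisk marks a limma adjusted p under 0.05. The 10 genes that passed the threshold lie below the control mean in every BRD8 siRNA library, and control library 2 departs from the other control libraries in many genes.

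The recombinase group held RAD51B, RAD51C, RAD51D, XRCC2, XRCC3, RAD51AP1, RAD54L and RAD54B, which build, move or assist the filament that exchanges DNA strands. RAD51AP1 and XRCC2 fell among its 8 genes and none rose, where 8.93% of all genes tested fell and 10.1% rose. The median log2 fold change of the group was -0.31 with all 8 below 0. RAD51AP1, which aids the joining of DNA molecules, had 450.2, 448 and 430.2 normalized counts in BRD8 siRNA libraries, against 698, 673 and 793 in control libraries. The groups did not overlap, and the level averaged 443 ± 10.9 with BRD8 siRNA and 721 ± 63.4 in controls (SD, n = 3 each). This was 38.6% lower, with a log2 fold change of -0.70 (SE 0.0914, limma adjusted p = 0.00159), the smallest adjusted p of the 42 genes. RAD51AP1 has the pseudogene RAD51AP1P1, with which the counting may divide its reads. XRCC2, the paralog that works in the complex of RAD51B, RAD51C and RAD51D, had 206, 197 and 212 normalized counts with BRD8 siRNA, against 346, 232 and 319 in controls. Control library 2 lay close to the BRD8 siRNA libraries for this gene, the other control libraries well above. XRCC2 was 31.5% lower on average, with a log2 fold change of -0.52 (SE 0.151, limma adjusted p = 0.0418).

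The other 6 recombinase genes did not pass. RAD51B had 155, 162 and 161 normalized counts with BRD8 siRNA, against 193, 211 and 196.1 in controls, without overlap, at a log2 fold change of -0.32 (limma adjusted p = 0.0597). XRCC3, the paralog that pairs with RAD51C, was the most abundant of the 6 per kilobase and in normalized counts, with 426, 471 and 434 with BRD8 siRNA, against 493, 527 and 485 in controls. Its groups were also apart, by a narrow gap, with a log2 fold change of -0.18 (limma adjusted p = 0.202). The DNA translocases RAD54L and RAD54B had log2 fold changes of -0.31 and -0.30, RAD51D had -0.24 and RAD51C -0.08, with limma adjusted p-values of 0.0834, 0.157, 0.158 and 0.660. RAD51D had the lowest level per length of the 42 genes in controls, at 20.4 normalized counts per kilobase of its longest GENCODE transcript of 9988 bases. Exons of RAD51D are shared with the readthrough gene RAD51L3-RFFL.

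BRCA1 and its direct partner BARD1 fell, where 8.93% of all genes tested did, whereas PALB2, BRCA2 and BRIP1 did not pass. The median log2 fold change of these 5 genes was -0.49 and all lay below 0. Of the 5 genes, 4 passed as lower without control library 2, where 18.1% of all genes did, and 1 without control library 3, where 3.44% did. BRCA1, the ubiquitin ligase subunit that promotes resection, had 709, 637 and 709.6 normalized counts with BRD8 siRNA, against 1098, 882 and 1060.0 in controls. The highest BRD8 siRNA library stayed below the lowest control library, and the means were 685 ± 41.6 with BRD8 siRNA and 1013 ± 115 in controls (SD, n = 3 each). BRCA1 was thus 32.4% lower, with a log2 fold change of -0.56 (SE 0.103, limma adjusted p = 0.00716). Exons of BRCA1 overlap AC060780.1 on the same strand and RPL21P4 on the opposite strand, so a part of its counts is uncertain. BARD1, which forms the ligase with BRCA1, had 417, 447 and 495 normalized counts with BRD8 siRNA, against 754, 503 and 681 in controls. Control library 2 exceeded the highest BRD8 siRNA library only narrowly. The log2 fold change of BARD1 was -0.49 (SE 0.149, limma adjusted p = 0.0487), and it was 29.9% lower on average.

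BRCA2, which acts downstream of PALB2 in strand exchange, had 267, 267 and 351 normalized counts with BRD8 siRNA, against 516, 302 and 479.7 in controls. Control libraries 1 and 3 were higher than every BRD8 siRNA library, while control library 2 lay among them. The log2 fold change was -0.52, similar in size to that of BRCA1, but with an SE of 0.203 and a limma adjusted p of 0.107. BRCA2 passed as lower with DESeq2 (adjusted p = 0.0356) and not with edgeR (0.0861). PALB2, the bridge between BRCA1 and BRCA2, had 803, 761 and 812 normalized counts with BRD8 siRNA, against 977, 849.7 and 856 in controls, without overlap. Its log2 fold change was -0.17 (limma adjusted p = 0.203), the smallest of the 5. BRIP1, the helicase that binds BRCA1 and is also a Fanconi gene, had a log2 fold change of -0.43 with a limma adjusted p of 0.0527 and groups that did not overlap, and it passed with edgeR at 0.0471.

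In the Fanconi pathway the ubiquitinated pair fell, while no gene of the core and its anchor FANCM passed. FANCI had 1681, 1485 and 1614 normalized counts with BRD8 siRNA, against 2460.4, 2236 and 2902 in controls. Its partner FANCD2 had 714, 688 and 720.2 with BRD8 siRNA, against 925, 981 and 1130.1 in controls. For both, the 3 BRD8 siRNA libraries lay below the 3 control libraries with a wide gap. FANCI averaged 1593 ± 99.7 with BRD8 siRNA and 2533 ± 339 in controls, and was 37.1% lower, with a log2 fold change of -0.66 (SE 0.105, limma adjusted p = 0.00364). FANCD2 averaged 708 ± 16.9 with BRD8 siRNA and 1012 ± 106 in controls, and was 30.1% lower, with a log2 fold change of -0.51 (SE 0.0928, limma adjusted p = 0.00665). Per kilobase of transcript FANCI was the second most abundant of the 42 genes in controls, at 534 normalized counts, after TOPBP1 at 701. Exons of FANCI overlap POLG, and those of FANCD2 overlap FANCD2OS, each on the opposite strand, and FANCD2 has the pseudogene FANCD2P2, so a part of these counts is uncertain.

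Log2 fold changes of the 8 core genes ran from -0.74 for FANCB to 0.14 for FANCL. None passed by limma, where 8.93% of all genes tested fell and 10.1% rose. Of the 8, 4 had an unadjusted p under 0.05, where 33.1% of all genes tested did. EdgeR called 1, where it called 8.66% of all genes lower, and DESeq2 called 2, where it called 10.5%. All of these lay lower. FANCB, a subunit of the catalytic module with FANCL, had 89.4, 72.1 and 111 normalized counts with BRD8 siRNA, against 176, 109 and 177 in controls. Control library 2 was below the highest BRD8 siRNA library, so the groups overlapped, and the log2 fold change of -0.74 had an SE of 0.227 (limma adjusted p = 0.0515, edgeR adjusted p = 0.0430). FANCG, a scaffold subunit beside FANCA, had a log2 fold change of -0.42 without overlap, at a limma adjusted p of 0.0515 and a DESeq2 adjusted p of 0.0162. FANCF, an adaptor, with the highest mean count of the core genes before any correction for length, had 1069, 1219 and 1263 normalized counts with BRD8 siRNA, against 1160.1, 1027 and 1066 in controls. These groups overlapped, with a log2 fold change of 0.12 (limma adjusted p = 0.389). FANCA, FANCE and FANCM had log2 fold changes of -0.29, -0.26 and -0.33, FANCC had 0.01, and the ligase FANCL had 0.14 with all BRD8 siRNA libraries above all controls (limma adjusted p = 0.259). The median of the 8 was -0.28, with 5 below 0 and 3 above, of which FANCC, near 0, changed sign under DESeq2. Without control library 2, 3 of the 8 passed as lower, where 18.1% of all genes did. Whether the pair and the core differ in their change was not tested.

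CHEK1 was the only checkpoint kinase of 4 that fell at the threshold, and none rose. Of all genes tested 8.93% fell and 10.1% rose. CHEK1, the effector kinase of ATR that restrains origin firing and mitotic entry, had 653, 707 and 679.6 normalized counts with BRD8 siRNA, against 989, 863 and 888 in controls. The groups were apart and the spread within each was small, at 680.0 ± 27.3 with BRD8 siRNA and 913 ± 66.5 in controls (SD, n = 3 each). CHEK1 was 25.5% lower, with a log2 fold change of -0.42 (SE 0.0857, limma adjusted p = 0.0104). An exon of CHEK1 overlaps STT3A on the same strand in GENCODE.

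The apical kinases varied among the control libraries. ATR had 3226, 2907 and 3510.1 normalized counts with BRD8 siRNA, against 4455, 3050.0 and 4032 in controls. ATM had 1295, 1130.4 and 1383 with BRD8 siRNA, against 1971, 1182 and 1939 in controls. For each, control library 2 lay within the BRD8 siRNA range, and the other control libraries lay above it. The log2 fold changes were -0.24 for ATR (SE 0.137, limma adjusted p = 0.254) and -0.39 for ATM (SE 0.185, limma adjusted p = 0.185). Without control library 2 they were -0.40 (limma adjusted p = 0.00465) and -0.63 (limma adjusted p = 0.000451). In that fit 3 of the 4 kinases passed as lower, where 18.1% of all genes did. CHEK2, the effector of ATM, had a log2 fold change of -0.20 (limma adjusted p = 0.213) and has the pseudogenes CHEK2P2 to CHEK2P5, among which the counting may divide its reads. The ATR partner ATRIP and the ATR activator TOPBP1 had log2 fold changes of -0.23 and -0.21, with overlapping groups and limma adjusted p-values of 0.171 and 0.201. ATRIP shares exons with TREX1, and ATM overlaps NPAT and C11orf65 on the opposite strand.

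Among the genes that sense breaks and resect their ends, EXO1 fell and the other 3 had positive fold changes that did not pass. EXO1, the exonuclease of long-range resection, had 270.3, 275 and 275 normalized counts with BRD8 siRNA, against 403, 398 and 421 in controls. Replicates lay close together in both groups, at 273 ± 2.59 with BRD8 siRNA and 407 ± 11.8 in controls (SD, n = 3 each). The level was 32.9% lower, with a log2 fold change of -0.57 (SE 0.0865, limma adjusted p = 0.00298). RAD50, the structural subunit of the MRE11 complex, had 3147, 2948 and 3426 normalized counts with BRD8 siRNA, against 3119, 2275 and 2909.6 in controls, where control library 2 was lowest. Its groups overlapped, with a log2 fold change of 0.21 (limma adjusted p = 0.270). NBN, the adaptor of that complex to ATM, had 0.14 (limma adjusted p = 0.428), and RBBP8, which encodes the resection factor CtIP, had 0.18 with all BRD8 siRNA libraries above all controls (limma adjusted p = 0.143). The nuclease subunit itself, listed as MRE11A and not among the 42, had 911, 824 and 885 normalized counts with BRD8 siRNA, against 1061, 943 and 1225 in controls, at a log2 fold change of -0.29 (limma adjusted p = 0.0870). The chromatin mediators MDC1, which docks on damaged chromatin, and TP53BP1, which opposes resection, had log2 fold changes of -0.17 and -0.40, with limma adjusted p-values of 0.257 and 0.0608. TP53BP1 passed as lower with DESeq2 (adjusted p = 0.0205) and not with edgeR (0.0532).

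Of the genes that process joined molecules, the helicase BLM fell and its cofactors RMI1 and RMI2 did not pass. BLM had 416, 427 and 504 normalized counts with BRD8 siRNA, against 608, 568 and 659 in controls. The groups did not overlap, and BLM was 26.6% lower, with a log2 fold change of -0.45 (SE 0.105, limma adjusted p = 0.0195). RMI1 had 431, 479 and 494 normalized counts with BRD8 siRNA, against 479.6, 405 and 477 in controls. RMI2 had 550.0, 568 and 539 with BRD8 siRNA, against 492, 575 and 591 in controls. For both cofactors the libraries of the groups lay among each other, with log2 fold changes of 0.05 (SE 0.104) and 0.0031 (SE 0.0958) and limma adjusted p-values of 0.789 and 0.986. The nuclease MUS81 had 945, 919.8 and 868 normalized counts with BRD8 siRNA, against 718, 858 and 726 in controls, and its partner EME1 had 187, 174 and 196.2 with BRD8 siRNA, against 209, 295 and 266 in controls. The subunits of this enzyme thus lay on opposite sides, each without overlap, with log2 fold changes of 0.25 (limma adjusted p = 0.0984) and -0.45 (limma adjusted p = 0.0541). Neither passed by limma, while DESeq2 called EME1 as lower (adjusted p = 0.0338) and did not call MUS81 (0.103). Exons of MUS81 overlap CFL1 and EFEMP2, and those of EME1 overlap LRRC59, each on the opposite strand, so a part of these counts is uncertain. SLX4, the scaffold for such nucleases, had 0.04 (limma adjusted p = 0.818).

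POLQ, the polymerase of theta-mediated end joining, which uses resected ends in competition with recombination, had a log2 fold change close to that of RAD51AP1 and the lowest of the 10 genes that fell, an order that turned in some alternative fits. It had 450.2, 459 and 577 normalized counts with BRD8 siRNA, against 924, 664 and 941 in controls. BRD8 siRNA library 3 was the highest of its group and control library 2 the lowest of its own, and a gap remained between them. POLQ averaged 495 ± 70.9 with BRD8 siRNA and 843 ± 155 in controls (SD, n = 3 each), 41.2% lower, with a log2 fold change of -0.76 (SE 0.154, limma adjusted p = 0.0105).

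**Figure D2:**
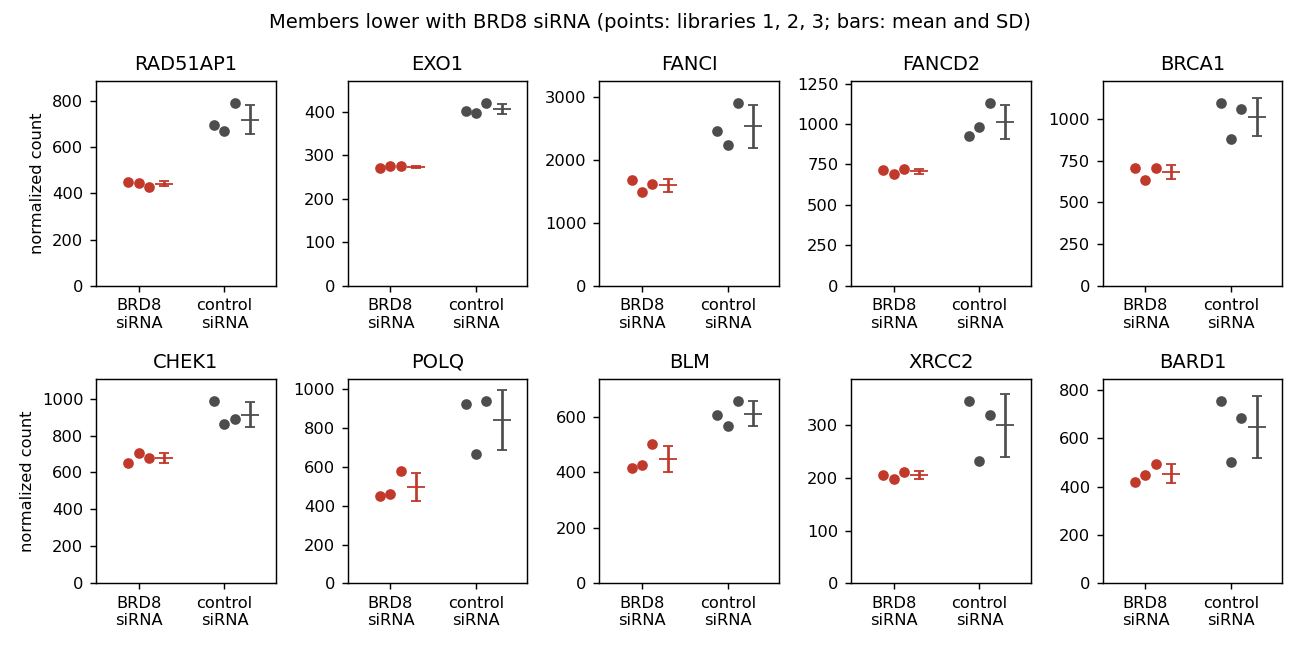
Normalized counts of the 10 genes that fell, 1 panel a gene, with BRD8 siRNA left and control siRNA right; points are libraries 1 to 3 from left to right, beside the group mean and the SD of 3 libraries. No gene's groups overlap, and for XRCC2 and BARD1 control library 2 comes close to the BRD8 siRNA libraries.

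The calls differed in how far they rested on single libraries. RAD51AP1, BRCA1, FANCD2, FANCI, CHEK1 and EXO1 passed as lower in all 18 alternative analyses, among them each omission of a library. POLQ missed the threshold only without control library 3 (limma adjusted p = 0.0512). BLM missed it without BRD8 siRNA library 1 (0.0673), BRD8 siRNA library 2 (0.0756), control library 1 (0.0538) or control library 3 (0.0951), as limma adjusted p-values. XRCC2 and BARD1 missed it when any library but control library 2 was left out, with limma adjusted p-values of 0.0987 to 0.155 for XRCC2 and 0.0812 to 0.168 for BARD1, while without control library 2 they had 0.000778 and 0.000645.

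**Figure D3:**
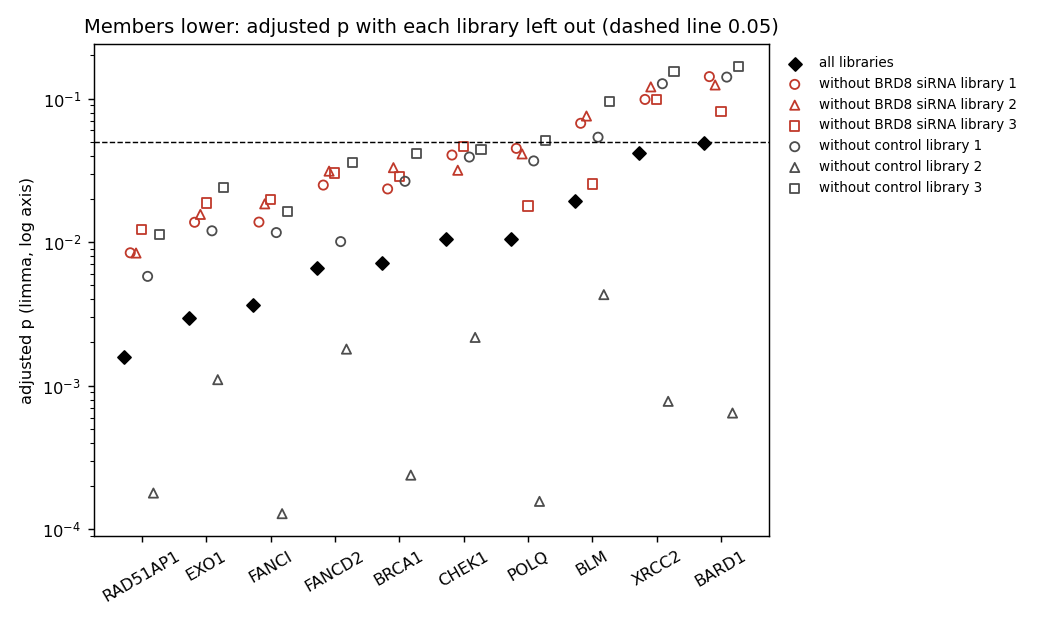
Limma adjusted p of the 10 genes that fell with all 6 libraries and with each library left out, on a log axis, with the threshold of 0.05 as a line. RAD51AP1, EXO1, FANCI, FANCD2, BRCA1 and CHEK1 stay below the line throughout, and each of the 10 genes has its smallest value without control library 2.

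Control library 2 was the lowest control for 29 of the 42 genes, the highest for 11 and the middle one for 2. Over all genes tested it was lowest for 41.4% and highest for 43.7%. The 29 genes had a median longest transcript of 5258 bases, the 11 genes one of 2631 bases. Across the 42 genes the log2 value in control library 2 minus the mean of the other control libraries on that scale had a Spearman correlation of -0.66 with transcript length, and -0.53 across 14358 genes with a length. These are descriptions across genes, which share the 6 libraries and are not independent. Long genes such as ATM, with 13147 bases, and BRCA2, with 11986, were among those where it lay lowest. Without control library 2, 20 of the 42 genes passed as lower, and MUS81 passed as higher (log2 fold change 0.33, limma adjusted p = 0.00876), where 18.1% of all genes passed as lower and 15.9% as higher. The 20 held all 10 named above and, among others, BRCA2 (-0.76, adjusted p = 0.00124), FANCB (-0.97, 0.00205), TP53BP1 (-0.54, 0.000977), BRIP1 (-0.56, 0.00297), FANCM (-0.47, 0.00610) and TOPBP1 (-0.32, 0.00765), each as log2 fold change and limma adjusted p. Without control library 3 it was 6 of the 42, where 3.44% of all genes passed as lower and 5.42% as higher. After each library was corrected for its trends with transcript length and GC, 24 fell and RAD50, NBN and RBBP8 rose, where 18.2% of genes fell and 15.5% rose. The part that length plays in the differences between the groups was not tested beyond these fits.

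**Figure D4:**
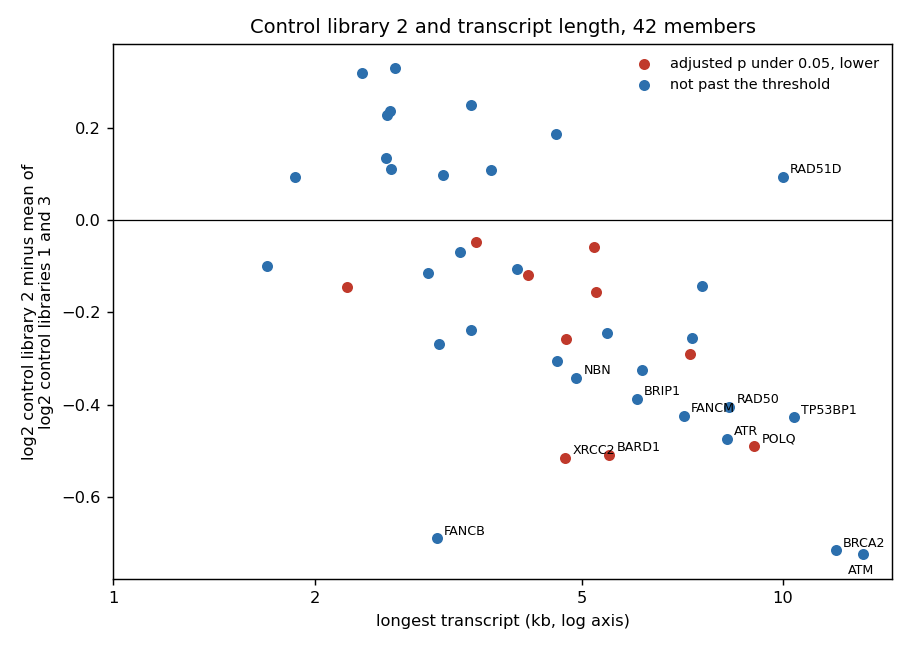
Log2 normalized count in control library 2 minus the mean of control libraries 1 and 3 on that scale, against the length of the longest GENCODE transcript in kilobases on a log axis, 1 point for each of the 42 genes, with the 10 genes that fell in red. ATM and BRCA2, the longest transcripts, lie at -0.73 and -0.72.

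The table of RefSeq promoters (GRCh38.p14) held 38 of the 42 genes, and those of FANCI, NBN, RAD54B and RMI2 were not analysed here. Windows from 250 bases before to 50 after each gene's start were searched on both strands for the E2F forms TTCCCGC and TTGGCGC, for TTTGAA and TTTAAA, which are forms of the cell cycle homology region, and for CCAAT. The form TTCCCGC occurred in 14 of 38 promoters (36.8%), against 9.80% of 10999 promoters of genes tested and 6.56% of all 27305 promoters in the table. By call, it occurred in 6 of 9 genes that fell (66.7%) and in 8 of 29 that did not pass (27.6%). The other motifs, split the same way, differed less or lay the other way. TTGGCGC occurred in 11.1% of the genes that fell and 13.8% of those that did not pass, and CCAAT in 33.3% and 48.3%. Either E2F form occurred in 66.7% of the genes that fell and 41.4% of those that did not pass, and either form of the homology region in 22.2% and 17.2%. Whether motifs differ by call was not tested. Either E2F form occurred in 47.4% of the 38, against 14.1% of promoters of genes tested and 9.33% of all. Either form of the homology region occurred in 18.4%, against 16.2% of promoters of genes tested and 24.3% of all, and CCAAT in 44.7%, against 36.4% of promoters of genes tested and 35.7% of all. A match of letters is a description and not a site of binding. Shown are the 110 bases before and 30 after the start for the 6 genes that fell with a match, and for FANCG and FANCL, which did not pass and were picked after their values were seen, with the E2F forms in capitals on either strand (GCGGGAA is TTCCCGC read from the other strand). They lie at chr12:4538780-4538919 on the plus strand (RAD51AP1), chr7:152676112-152676251 on the minus strand (XRCC2), chr2:214809654-214809793 on the minus strand (BARD1), chr3:10026327-10026466 on the plus strand (FANCD2), chr15:90717236-90717375 on the plus strand (BLM), chr3:121545959-121546098 on the minus strand (POLQ), chr9:35079913-35080052 on the minus strand (FANCG) and chr2:58241296-58241435 on the minus strand (FANCL), and are written 5′ to 3′ on the strand of the gene.
RAD51AP1: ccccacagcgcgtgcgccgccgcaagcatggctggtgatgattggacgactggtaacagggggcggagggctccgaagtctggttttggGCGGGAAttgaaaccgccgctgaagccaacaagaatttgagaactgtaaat
XRCC2: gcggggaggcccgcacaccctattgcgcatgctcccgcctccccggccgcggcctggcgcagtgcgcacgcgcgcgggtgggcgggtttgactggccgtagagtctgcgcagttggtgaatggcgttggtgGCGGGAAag
BARD1: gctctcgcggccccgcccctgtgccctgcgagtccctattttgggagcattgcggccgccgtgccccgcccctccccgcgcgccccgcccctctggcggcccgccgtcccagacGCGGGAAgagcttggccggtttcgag
FANCD2: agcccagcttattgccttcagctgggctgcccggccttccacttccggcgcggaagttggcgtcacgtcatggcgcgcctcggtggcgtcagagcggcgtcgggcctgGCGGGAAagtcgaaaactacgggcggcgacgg
BLM: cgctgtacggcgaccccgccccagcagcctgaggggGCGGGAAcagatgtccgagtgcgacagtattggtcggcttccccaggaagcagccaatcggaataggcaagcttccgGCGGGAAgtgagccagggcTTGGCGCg
POLQ: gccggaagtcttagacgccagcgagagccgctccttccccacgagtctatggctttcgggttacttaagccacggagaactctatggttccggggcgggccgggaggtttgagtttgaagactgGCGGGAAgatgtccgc
FANCG: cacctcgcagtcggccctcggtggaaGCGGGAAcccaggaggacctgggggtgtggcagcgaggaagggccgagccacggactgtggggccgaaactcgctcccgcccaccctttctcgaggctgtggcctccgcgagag
FANCL: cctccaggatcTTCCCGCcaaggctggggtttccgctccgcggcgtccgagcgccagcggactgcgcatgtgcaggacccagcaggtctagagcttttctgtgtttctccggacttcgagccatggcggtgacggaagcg

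**Figure D5:**
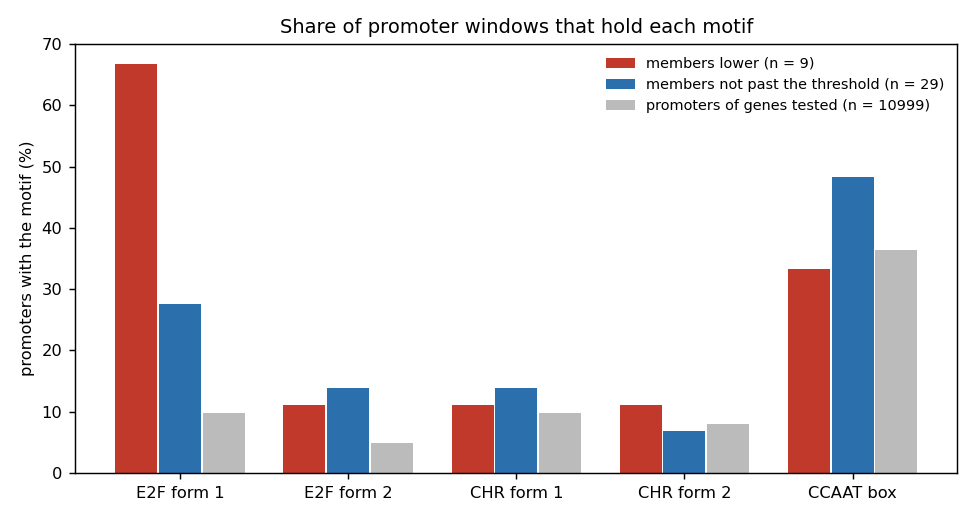
Percent of promoter windows that hold each motif form on either strand, for the genes of the 42 that fell, those that did not pass and all genes tested; E2F forms 1 and 2 are TTCCCGC and TTGGCGC, and CHR forms 1 and 2, of the cell cycle homology region, are TTTGAA and TTTAAA. E2F form 1 stands at 66.7% of 9 promoters of genes that fell and 27.6% of 29 that did not pass, and CCAAT at 33.3% and 48.3%.

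Beyond the 42, a list of 62 other genes of recombination, crosslink repair and checkpoint signalling had 60 genes tested. Of these 13 fell (21.7%) and 1 rose (1.67%), against 8.93% and 10.1% of all genes tested, and the median log2 fold change was -0.14. Without control library 3, 2 fell and none rose, where 3.44% of all genes fell and 5.42% rose. Without control library 2, 19 fell and 3 rose, where 18.1% of all genes fell and 15.9% rose. The omission of control library 2 was applied to the lists beyond the 42 only after the data were seen. RNF168, the ubiquitin ligase that marks chromatin at breaks, had 2132, 1990.5 and 2099 normalized counts with BRD8 siRNA, against 3038, 2717 and 3013 in controls, and fell with a log2 fold change of -0.49 (limma adjusted p = 0.00318). UBE2T, the ubiquitin-conjugating enzyme of the Fanconi core, had 587, 548 and 501 with BRD8 siRNA, against 692, 839 and 721 in controls, and also fell (-0.46, limma adjusted p = 0.0169). PARPBP, which restrains recombination, fell (-0.54, limma adjusted p = 0.0165), as did the resolvase GEN1 (-0.52, limma adjusted p = 0.0228) and MND1, a partner of the meiotic recombinase (-0.61, limma adjusted p = 0.00893). On the side of the replication checkpoint RAD17 (-0.32, limma adjusted p = 0.0149) and CLSPN, which carries the ATR signal to CHEK1 (-0.50, limma adjusted p = 0.0235), fell, and so did RAD18, the ligase of damage bypass (-0.46, limma adjusted p = 0.00889). The gene that rose was BRE, a subunit of the BRCA1-A complex (0.30, limma adjusted p = 0.0447). RAD52, the annealing protein, did not pass, with 414, 382 and 381 normalized counts with BRD8 siRNA, against 399, 356 and 394 in controls and a log2 fold change of 0.03 (limma adjusted p = 0.830).

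Classical end joining, the route that does not need resected ends, was set beside them. Of 15 genes none passed by limma or edgeR, which called 8.93% and 8.66% of all genes lower. DESeq2 called 1 as lower, where it called 10.5% of all genes. An unadjusted p under 0.05 was found for 4, against 33.1% of all genes tested. The median log2 fold change was -0.04. Without control library 2, 3 of the 15 fell and 1 rose, where 18.1% of all genes fell and 15.9% rose. Once each library was corrected for its length and GC trends, 4 fell and 1 rose, where 18.2% of genes fell and 15.5% rose. That correction joined to the replicate block gave 5 lower and 1 higher, where 2838 of 14358 genes fell and 2324 rose. The block by itself gave 2 lower, and its share over all genes is not given here. The kinase PRKDC had 5685, 4879 and 6004 normalized counts with BRD8 siRNA, against 8841, 5523 and 8631 in controls, where control library 2 lay within the BRD8 siRNA range, at a log2 fold change of -0.45 (limma adjusted p = 0.105). PRKDC was the gene that passed as lower with DESeq2 (adjusted p = 0.0266), and it did not pass with edgeR (0.0821). Without control library 2 its log2 fold change was -0.67 (limma adjusted p = 0.000221). The ligase cofactor XRCC4 had 0.21 (limma adjusted p = 0.0694) and the end-binding subunit XRCC5 -0.16 (limma adjusted p = 0.109). Whether end joining and recombination genes differ in their change was not tested.

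Genes of proliferation fell beside the repair genes. Of 20 mitotic and proliferation markers 19 fell, where 8.93% of all genes tested did. The 20 markers had a median log2 fold change of -0.73, and their summed normalized counts were 64062 to 67922 with BRD8 siRNA, against 107236 to 131929 in controls. CCNB2, a mitotic cyclin, had a log2 fold change of -0.89 (limma adjusted p = 0.000338), the survivin gene BIRC5 -0.78 (0.000749) and the spindle factor TPX2 -0.75 (0.000693). Of 25 genes of DNA replication in S phase 13 fell, where 8.93% of all genes tested did. The 25 genes had a median of -0.29, with sums of 28712 to 29989 with BRD8 siRNA, against 33953 to 36757 in controls. Without control library 3, 5 of the 25 fell, where 3.44% of all genes did. Among the 13 were the clamp loader subunit RFC3 (-0.74, limma adjusted p = 0.00158), the primase PRIM1 (-0.60, 0.00360) and the helicase subunit MCM6 (-0.39, 0.00620). The part of this in the values of the repair genes was not tested.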

How the data were processed

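RNA-seq libraries from 3 BRD8 siRNA and 3 control siRNA samples of Calu3 cells were grouped by the sample titles; the shared extraction protocol names HBE cells instead, and the titles were followed. Per the labels, libraries were made with the TruSeq RNA kit v2, which does not mark strand, and sequenced from a single end. Per the submitters' processing notes, STAR 2.6, featureCounts 1.6.3 of Subread, DESeq2 1.22.1 and the build hg19 were used; no source used here gives the annotation or the strand setting. The deposited table holds a normalized signal, read counts of each gene divided by the library's size factor, beside the authors' mean, log2 fold change, standard error, test score, p-value and adjusted p-value. Every column was used as its header names it, and 28 symbols that look like dates were not named. Dividing by the value of 1 read turned the normalized counts back into whole reads (100% within 0.01), and 3 reads correspond to 2.84 to 3.24 normalized counts, a floor for counting error only. Within groups libraries differed by more than sampling noise, so each counted once.

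The 42 genes, the other lists and the tests were chosen with earlier results of these data known. Because the values were normalized, limma 3.58.1 (R 4.3.3) with a variance trend was fitted to log2(normalized count + 1) for the 15354 genes whose mean reached 10, with Benjamini-Hochberg adjustment and a threshold of 0.05; fold changes of low genes are understated. Alternatives were edgeR 4.0.16 and DESeq2 1.42.0 on the recovered reads, the authors' deposited table, other pseudocounts and filters, no trend, quantile normalization, a length and GC trend taken out, a replicate block and each library left out. Values per library are given for members past the threshold, and for the most abundant and the most changed other member of each role group of 3 or more; of the other lists the smallest adjusted p-values are named. In simulated counts over 15276 genes the share of changed genes that limma called was 61% at 1.5-fold and 80% at 2-fold, with 4.73% false calls. The simulation drew each gene independently, changed only a small part of the genes and held no shift shared across a library like that of control library 2. Its rates therefore need not hold for these data, and changes under 1.5-fold were not simulated. Transcript lengths, GC content and overlaps came from GENCODE v29, which is on another build and matched 23747 symbols directly, 93.5% of genes tested having a length; coordinates are given for the RefSeq promoters only. Of the 42 genes 26 have exons that overlap another gene, 22 on the opposite strand, where reads cannot be told apart. Protein sequences were not used here. A few genes that the naming rule or the marker lists hold are left unreported.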

Additional observations from a re-analysis of the deposited data

How the results depend on the processing

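Of the 42 genes, 10 passed as lower, where 8.93% of all genes tested did. DESeq2 gave 16, where it called 10.5% of all genes, and 16 passed in the authors' deposited table. Taking out the length and GC trend gave 24, where 18.2% of genes fell. The replicate block gave 17, and the block with that trend taken out 23. Leaving out 1 library gave 6 to 20, where 3.44% to 18.1% of all genes fell. The counts of each role group below stand beside the same shares, and none is given for the block by itself. The 10 were held among the calls of edgeR, DESeq2, the authors' deposited table, the trend fit and the fit without control library 2. XRCC2 and BARD1 missed the threshold with no variance trend (limma adjusted p = 0.0691 and 0.0910) and with no filter on low values (0.0548 and 0.0562), and BARD1 also after quantile normalization (0.0528). None passed as higher, against 3 once trends with length and GC were removed, 3 with the block and those trends removed together, and 0 to 1 without 1 library. For strand exchange genes (2 lower) the count was 1 with no filter on low values, 5 with the trend taken out, 5 with the block and the trend fit together and 1 to 3 without 1 library. For the Fanconi core (0 lower) it was 1 with edgeR, 2 with DESeq2, 2 in the authors' deposited table and 1 with quantile normalization, 4 with the trend taken out, 2 with the block, 4 with both and 0 to 3 without 1 library. For checkpoint kinases (1 lower) it was 3 with the trend taken out, 2 with the block, 3 with both and 1 to 3 without 1 library. Over all genes (1371 lower, 1549 higher) the trend fit gave 2617 lower, the trend fit with the block 2838 lower and 2324 higher, and the omissions 528 to 2781 lower and 833 to 2445 higher; the causes were not tested. The median log2 fold change of the 42 stayed between -0.34 and -0.25 without 1 library.

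Signs turned only for FANCC, RMI1, RMI2 and SLX4, all near 0. FANCC had a log2 fold change of -0.0044 with DESeq2 and in the authors' deposited table, -0.0067 after quantile normalization, and -0.087 to 0.17 without 1 library. RMI2 had -0.00029 with DESeq2 and in the authors' deposited table, -0.068 with the trend taken out with or without the block, and -0.079 to 0.054 without 1 library. RMI1 ranged from -0.033 to 0.10 and SLX4 from -0.043 to 0.11 without 1 library. The replicate numbers were not taken to pair the libraries: deviations of same-numbered libraries correlated at -0.0845, 0.335 and 0.155, and not every library correlated best with its own number.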
